A study of Homo sapiens with 8 samples.

Results

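Focal adhesion adaptors and kinases are the cytoplasmic proteins that gather at the tails of ligand-bound integrins. The group is a list of 47 genes chosen by name for their known roles, with earlier results of these data known. Each was followed through the array features annotated to that gene alone. Of these, 41 had a gene-level transcript cluster of their own, among 14232 genes with 1 symbol, and 5 more (CRK, TLN1, TLN2, LIMS1 and RSU1) were read only at the exon level. PAK1 was not analysed here.

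The cells were of the human breast cancer line MDA-MB-231, which is triple-negative and mesenchymal in character, and all of them carried a stably integrated lentiviral short hairpin RNA (shRNA). In the α3 knockdown group the hairpin targeted the integrin α3 subunit, and in the control group it was a control shRNA. Each group had 2 arrays, described by the submitters as biological replicates, from cells grown on plastic in medium with serum. The labels do not say whether the replicates came from separate transductions, so p-values measure only the spread between these arrays. The 4 hybridisations to the Affymetrix Human Exon 1.0 ST array were summarised both per gene and per exon probeset, which gives the 8 samples of the series. No rescue of α3 is among the samples, so loss of α3 and any other effect of the hairpin or of the transduced cells cannot be told apart.

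Integrins have no enzyme activity of their own. Talin and kindlin bind the β subunit tail and switch the receptor on, vinculin and the complex of ILK, PINCH and parvin tie it to actin, and focal adhesion kinase (FAK) docks Src family kinases. FAK and Src phosphorylate paxillin and the Cas scaffolds, which then recruit Crk and DOCK1 to activate Rac. The GIT-PIX-PAK module turns adhesions over, and zyxin and the Ena/VASP proteins organise actin at them. Integrin α3 pairs with β1 to form a receptor for laminins.

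All levels are PLIER intensities, a linear measure of probe brightness. Differences are knockdown minus control on the log2(intensity + 16) scale, and a gene was called higher or lower at an adjusted p under 0.05 by limma with Benjamini-Hochberg adjustment over all features tested. The target ITGA3 had 619 and 644 units in the knockdown arrays, against 3480 and 3529 in the control arrays, a log2 difference of -2.44 ± 0.073 (SE) (adjusted p = 8.70e-05). Array medians were 168 and 171 in knockdown and 177 and 186 in control, and other scalings moved the median log2 difference of all clusters, -0.056 here, to 0.016 (quantile) or 0.035 (centring). Markers expected of the line were bright, with VIM at 4347 and 4534 in knockdown and 4761 and 5241 in control, although SPARC lay among the dim features. Of the 6 tested, EGFR (log2 difference 0.66, adjusted p = 0.00443) and KRT18 (0.32, 0.0365) were called higher. AXL was called lower (-0.52, 0.00686), and VIM, CD44 and KRT8 did not pass. PTPRC, the pan-leukocyte marker, read 25.1 to 27.4 in all 4 arrays. Of the other leukocyte markers, CD14, at 205 to 250, and CD3E, at 93.5 to 144, were bright enough to test and did not pass. Of 7 luminal markers, ESR1, at 73.6 to 78.9, and PGR were dim in every array, and ERBB3, GATA3 and FOXA1 lay between 107 and 277 and did not pass. KRT19 was bright and called lower, at 2357 and 2343 in knockdown and 3812 and 4204 in control. CDH1, which encodes E-cadherin, went the other way by value, at 177 and 168 in knockdown and 25.4 and 28.8 in control, but its mean over the 4 arrays fell under the filter and it was not tested. The part of these markers in the results on the members was not tested.

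Of the 34 members bright enough to be tested, 6 were higher in knockdown (NEDD9, PTPN12, FYN, CAV2, PTK2 and FERMT2) and 4 were lower (FERMT1, TGFB1I1, LPXN and VCL). Over all 13206 clusters 21.4% were called, 6.00% higher and 15.4% lower. After quantile normalization 8 members were higher and 4 lower, and after centring 8 were higher and 3 lower, with LIMS2 and TES added in both and VCL lost in the second. The other 24 tested members did not pass, and their log2 differences ran from -0.31 to 0.31. The median log2 difference was -0.092 over the tested members and -0.056 over all clusters. In 17 tested members both knockdown arrays lay below both controls, in 9 both lay above, and in 8 the groups overlapped. Groups that do not overlap were common over all clusters too, at 39.7% below and 22.2% above. In bulk RNA, fewer cells with a transcript and less of it per cell cannot be told apart.

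**Figure D1:**
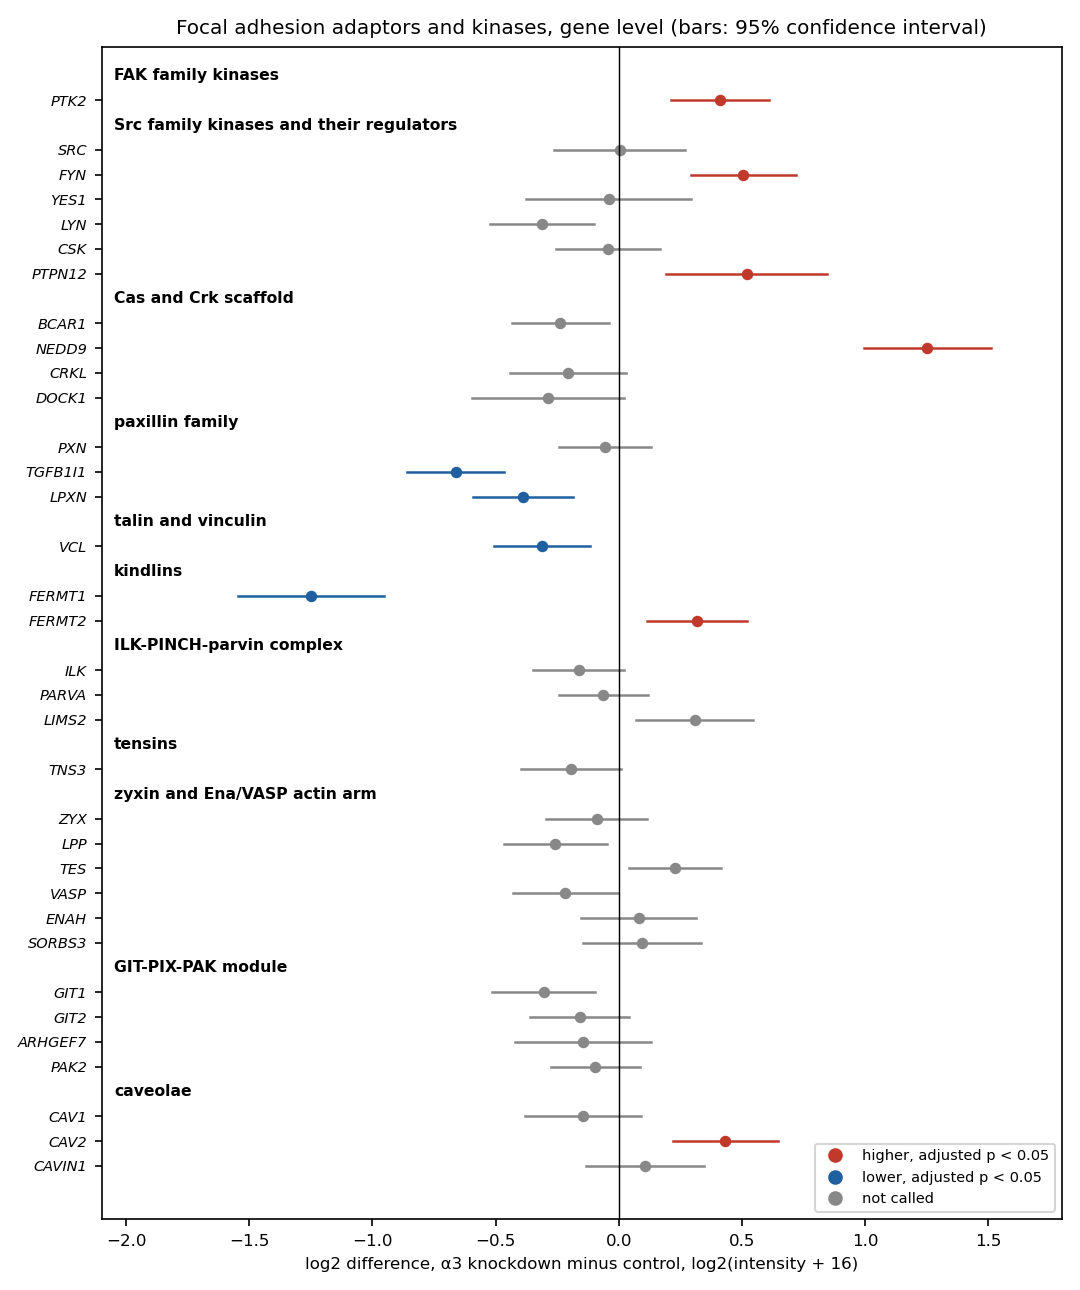
Log2 difference (knockdown minus control) of each of the 34 tested members with its 95% confidence interval from limma, grouped by role. NEDD9 at 1.25 and FERMT1 at -1.25 stand farthest from 0, and the 24 members that did not pass lie between -0.31 and 0.31.

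The kinases at the head of the pathway moved unevenly. PTK2, which encodes FAK, had 2154 and 2100.4 units in knockdown, against 1517 and 1676 in control. Both knockdown arrays lay above both controls, and the difference was 0.41 ± 0.082 (SE, log2, adjusted p = 0.0188). At the exon level all 34 tested PTK2 probesets had a positive difference, from 0.064 to 0.80, although 1 was called on its own. The gene-level call was lost without knockdown replicate 1 (adjusted p = 0.0952) or knockdown replicate 2 (0.0866). PTK2B, the FAK relative PYK2, was dim at 72.3 and 68.6 in knockdown and 72.0 and 77.7 in control.

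Among the Src family kinases, FYN was called higher, at 827 and 922 units in knockdown and 623 and 598 in control (0.51 ± 0.088 (SE) log2, adjusted p = 0.0130). All 19 of its tested probesets had a positive difference and 3 were called. Without knockdown replicate 2 the FYN call was lost (adjusted p = 0.104), as it was on exon medians (0.0823). LYN went the other way by value, with 421 and 448 in knockdown and 528 and 558 in control, but at an adjusted p of 0.0502 it did not pass. It passed with the dimmest 60% of features left out (0.0425). SRC itself was almost level, at 148 and 145 in knockdown and 146 and 145 in control, with a 95% interval of -0.26 to 0.27 around the log2 difference. These values lie below the median of every array (168 to 186), and SRC was not tested with the dimmest 60% left out. YES1 spread widely within the controls (860 and 1125) and had 1009 and 905 in knockdown, so the groups overlapped.

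Both enzymes that restrain this kinase arm were measured. CSK, which phosphorylates the inhibitory tail of Src kinases, had 812 and 860.5 in knockdown and 822 and 906 in control (adjusted p = 0.765). PTPN12, the phosphatase PTP-PEST that acts on Cas and paxillin, was called higher, with 805 and 1056 units in knockdown and 617 and 661 in control (0.52 ± 0.14 (SE) log2, adjusted p = 0.0415). Its knockdown arrays differed more from each other than the control arrays did. The call was lost without knockdown replicate 2 (0.198), control replicate 1 (0.119) or control replicate 2 (0.0817), and also without the filter on dim features (0.0936), with no intensity trend (0.0567) and on exon medians (0.0807).

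NEDD9, a Cas-family scaffold phosphorylated by FAK and Src and linked to cell migration, had the largest rise of the tested members. It measured 329.9 and 303 units in knockdown, against 121 and 126 in control. The groups stood well apart, with a log2 difference of 1.25 ± 0.11 (SE), or 2.38-fold (adjusted p = 0.00186), and the call was kept in all 12 alternative settings that tested it (adjusted p = 0.000271 to 0.0111). Of its 15 probesets 11 were bright enough to test, all 11 were higher by value and 9 were called, from 0.84 to 1.87. The largest difference was in probeset 2941789, with 629 and 638 units in knockdown and 154 and 169 in control.

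The other Cas scaffolds did not share that rise. BCAR1, which encodes p130Cas, had 709 and 670.0 units in knockdown and 838 and 793 in control (-0.24 ± 0.081 (SE) log2, adjusted p = 0.0890). Its 11 tested probesets all had a negative difference, with 0 called. EFS was dim, at 58.8 and 64.9 in knockdown and 62.1 and 69.4 in control. The difference in response between NEDD9 and its relatives was not tested as such.

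The adaptors that link Cas to Rac also did not pass. CRKL had 1216 and 1152 units in knockdown and 1266 and 1475 in control (adjusted p = 0.188). DOCK1, the exchange factor for Rac, had 559 and 569.6 in knockdown and 610.2 and 785 in control (adjusted p = 0.163), with 51 of 59 tested probesets negative. Without control replicate 1, DOCK1 passed at a log2 difference of -0.47 (adjusted p = 0.0270). CRK had 6 probesets, whose median was 2642 and 2139 in knockdown and 2101 and 2296 in control, with overlapping groups.

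Paxillin family adaptors carry LIM domains and bind FAK and vinculin. TGFB1I1, which encodes Hic-5, had 409 and 398 units in knockdown, against 659.6 and 637 in control. This was the second largest fall of the group, at -0.66 ± 0.081 (SE) log2 (adjusted p = 0.00487). LPXN, leupaxin, had 467 and 485 in knockdown and 608 and 649 in control (-0.39 ± 0.084 (SE) log2, adjusted p = 0.0244). Both genes had all knockdown arrays below all controls. PXN, which encodes paxillin, did not pass, at 1641 and 1660.4 in knockdown and 1653 and 1782 in control (95% interval of the log2 difference -0.24 to 0.13).

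At the exon level 16 of 17 TGFB1I1 probesets were lower by value and 5 were called, from -0.93 to -0.59. For LPXN all 13 were negative, between -0.61 and -0.16, and 0 were called. As medians of their probesets, neither passed (adjusted p = 0.216 for TGFB1I1 and 0.234 for LPXN). LPXN also lost its gene-level call without knockdown replicate 1 (0.153), knockdown replicate 2 (0.126) or control replicate 2 (0.0598). Hic-5 is abundant in smooth muscle. The 5 muscle markers listed (DES, MYH11, ACTG2, CNN1 and SMTN) summed to 725 and 757 units in knockdown and 1178 and 1166 in control. SMTN, the brightest, had 352 and 371 in knockdown and 663 and 696 in control. MYH11, ACTG2 and CNN1 were dim. ACTG2 had 52.1 and 45.8 in knockdown and 151 and 136 in control, and DES and MYH11 were also lower by value. CNN1 went the other way, at 65.4 and 72.9 in knockdown and 63.2 and 58.3 in control. The part of these muscle markers in the TGFB1I1 and VCL results was not tested.

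**Figure D2:**
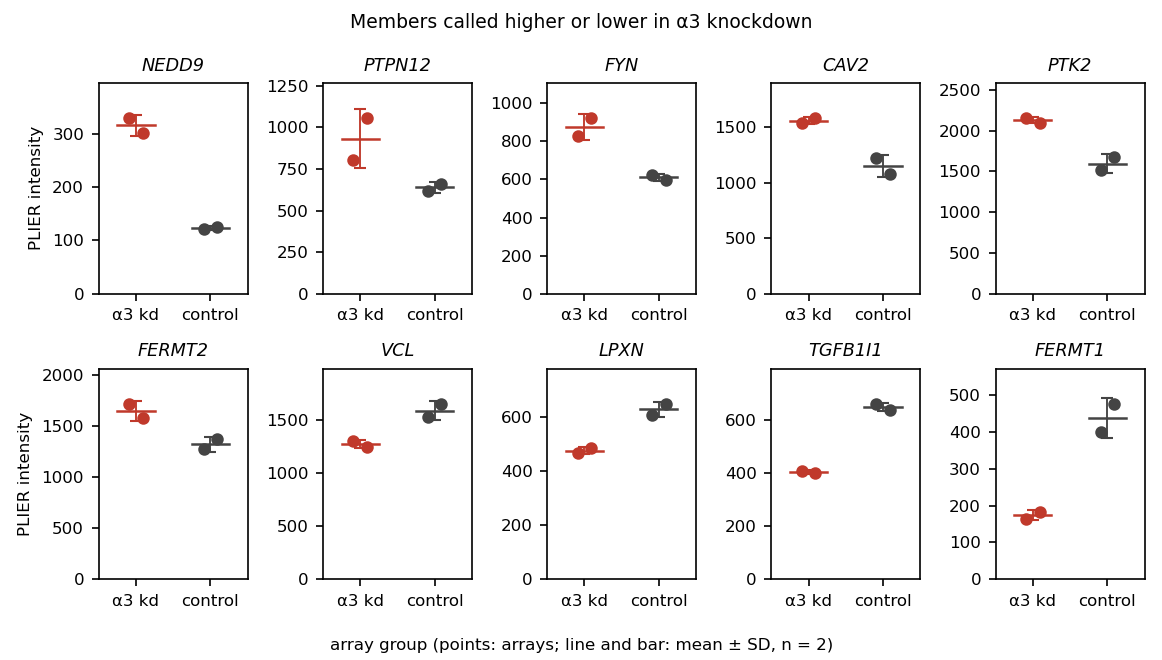
PLIER intensity of the 10 called members in each array, with mean ± SD (n = 2) per group and every axis starting at 0. In all 10 panels both knockdown arrays lie on one side of both controls, which was also the case for 61.9% of all clusters.

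The kindlins, which bind integrin tails together with talin, moved in opposite directions. FERMT1 (kindlin-1), the form typical of epithelia, had 165 and 184 units in knockdown, against 398 and 475 in control. That is a log2 difference of -1.25 ± 0.12 (SE), or 2.38-fold lower (adjusted p = 0.00277), and the call was kept in all 13 alternative settings (adjusted p = 0.000165 to 0.0131). All 22 tested FERMT1 probesets were lower by value and 17 were called, from -1.49 to -0.91. None of the 22 was near level, the smallest difference being -0.70, but FERMT1 has 28 probesets and the others were too dim to test. Some of the 22 passed the filter on dim features only through the control arrays. Probeset 3896640, for example, had 43.0 and 76.7 units in knockdown and 193 and 185 in control. Probesets that dim in both groups were set aside, so the tested ones cannot show whether the whole transcript was lower.

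FERMT2 (kindlin-2), the broadly expressed form, had 1721 and 1585 units in knockdown and 1274 and 1372 in control (0.32 ± 0.084 (SE) log2, adjusted p = 0.0431). Its 22 tested probesets were all higher by value, with 0 called. The call was lost when any of the 4 arrays was left out (adjusted p = 0.0524 to 0.237), and without the filter on dim features (0.0800), with no intensity trend (0.0679) and on exon medians (0.120). FERMT3 (kindlin-3), the blood cell form, was dim at 97.8 and 76.9 in knockdown and 100.4 and 88.6 in control. The 5 leukocyte markers with a cluster summed to 457 and 520 units in knockdown and 479 and 447 in control, with overlapping groups. CD14 was the brightest of them, followed by CD3E, and PTPRC was near the bottom of the scale.

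VCL, which encodes vinculin, the link from talin to actin, had 1300.1 and 1242 units in knockdown, against 1519.8 and 1648 in control (-0.31 ± 0.080 (SE) log2, adjusted p = 0.0395). Of its 31 tested probesets 30 were lower by value and 0 were called. The call was among the least stable, since centring each array on its median (0.0781), no filter (0.0728), no intensity trend (0.0637), exon medians (0.117), and leaving out knockdown replicate 1 (0.129), knockdown replicate 2 (0.227) or control replicate 2 (0.0940) each ended it. TLN1, the ubiquitous talin, had probeset medians of 908 and 1057 in knockdown and 1039 and 1207 in control (adjusted p = 0.443), with 42 of 60 probesets negative. TLN2 had 196 and 204 in knockdown and 182 and 207 in control (adjusted p = 0.917).

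In the complex of ILK, PINCH and parvin, 0 of the 3 members tested at the gene level passed. ILK, the scaffold pseudokinase, had 1497 and 1607 units in knockdown and 1733 and 1743 in control (adjusted p = 0.185). PARVA, α-parvin, was close to level at 1431 and 1394 in knockdown and 1442 and 1509 in control, and PARVB was dim. LIMS2 (PINCH-2) had 346 and 339 in knockdown and 288 and 260.0 in control (0.31 ± 0.097 (SE) log2, adjusted p = 0.0716). It passed after quantile normalization (0.0378) or centring (0.0357).

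The remaining partners of that complex were read by exon alone. LIMS1 (PINCH-1) had 10 tested probesets, all positive from 0.17 to 0.76, with medians of 1339.5 and 1290.3 in knockdown and 1347 and 991 in control and overlapping groups. RSU1, the Ras suppressor bound to PINCH, had 15 of 16 probesets negative and medians of 652 and 735 in knockdown and 792 and 947 in control (adjusted p = 0.210). Of its probesets 2 were called lower, 3279576 with 239 and 262 in knockdown and 449 and 558 in control, and 3279577 with 461 and 384 in knockdown and 793 and 796 in control. LIMS1 has near-identical copies in the genome, so its values are uncertain.

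**Figure D3:**
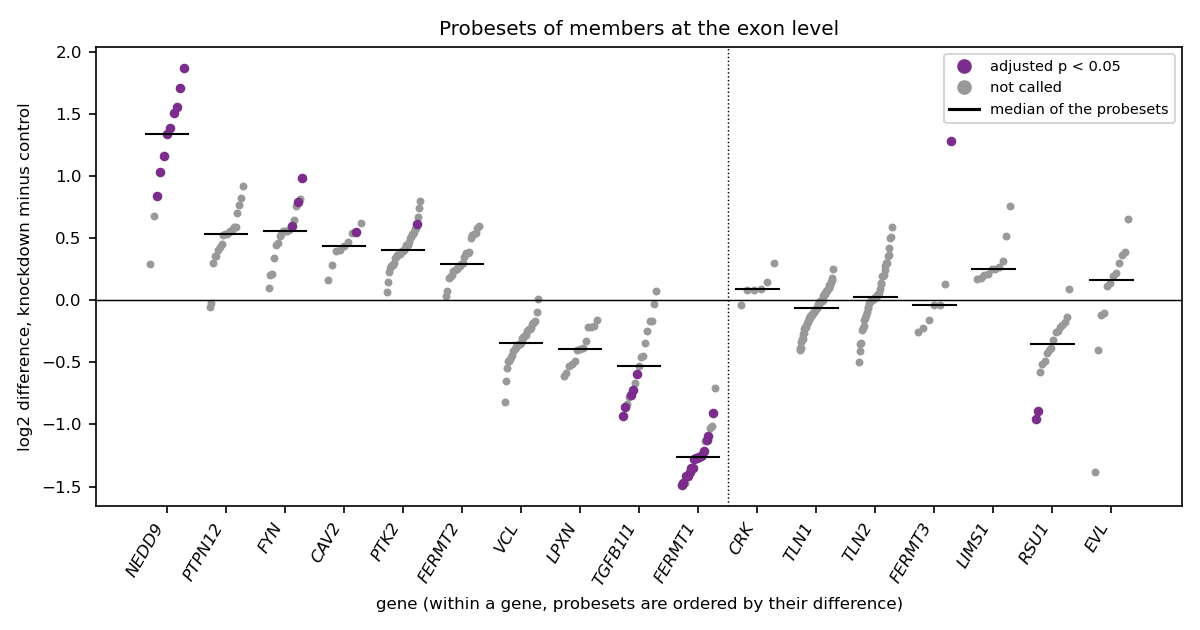
Log2 difference (knockdown minus control) of every tested probeset of the 10 called members (left of the dotted line) and of 7 others, with the median of each gene as a black line. The tested probesets of NEDD9 and FERMT1 lie wholly above and wholly below 0, although some passed the filter on dim features only through their brighter group. Those of TLN1 and TLN2 scatter around 0.

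Tensins, which cap actin and bind integrin tails, were mostly weak here. TNS3 had 574 and 614 units in knockdown and 666 and 698 in control (-0.19 ± 0.083 (SE) log2, adjusted p = 0.152), with 40 of 42 probesets negative. TNS1 and TNS4 were dim, with means between 82.7 and 97.9 in either group.

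Of the zyxin and Ena/VASP arm, 0 of 6 tested members passed. TES, testin, had 1340.5 and 1346 units in knockdown, against 1102 and 1188 in control (0.23 ± 0.078 (SE) log2, adjusted p = 0.0872), and all 12 of its probesets were positive. It passed after quantile normalization (0.0391) or centring (0.0233). LPP had 390.1 and 376 in knockdown and 449.7 and 472 in control (adjusted p = 0.0836), and VASP had 559 and 512 in knockdown and 610.4 and 639 in control (adjusted p = 0.133). ZYX, ENAH and SORBS3 lay within 0.10 of 0 on the log2 scale. EVL was dim at the gene level, with group means of 112 in knockdown and 104 in control.

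The GIT-PIX-PAK module had 4 members tested and 0 called. In each of the 4 both knockdown arrays lay below both controls, as in 39.7% of all clusters. GIT1, the scaffold that targets PIX and PAK to adhesions, had 525 and 557 units in knockdown and 648 and 696 in control (-0.31 ± 0.086 (SE) log2, adjusted p = 0.0518). It passed with the dimmest 60% left out (0.0429). GIT2, ARHGEF7 (β-PIX) and PAK2 had differences from -0.16 to -0.095. For PAK2 the sign depended on the summary. The difference between its per-array probeset medians was 0.20, while the median of its 24 probeset differences was 0.029, with 14 positive and 10 negative.

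GIT2 held 2 probesets that were called lower, and they were brighter in control in every array. Probeset 3471006 had 606 and 596 units in knockdown and 945 and 1087 in control, and 3471008 had 1394 and 1213 in knockdown and 2040 and 2089 in control. Of the other 25 GIT2 probesets none was called, and 9 of the 27 were positive. Tested against the rest of the gene with limma, neither passed.

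Caveolae are small invaginations of the plasma membrane, formed by caveolins with cavins as the coat, and are tied to integrin traffic. CAV1, the main structural caveolin, had 4909 and 4533 units in knockdown and 5584 and 4882 in control, with overlapping groups (adjusted p = 0.337). CAV2, its partner, was called higher, with 1536 and 1582 in knockdown, against 1224 and 1082 in control (0.43 ± 0.088 (SE) log2, adjusted p = 0.0199). All 9 tested CAV2 probesets were positive and 1 was called, but the gene-level call was lost without knockdown replicate 1 (0.0761) or knockdown replicate 2 (0.114), and on exon medians (0.0891). CAVIN1, the core coat protein, had 1295 and 1448 in knockdown and 1193 and 1352 in control and overlapped.

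Of 5 other caveolar genes tested outside the group, 3 were lower and 1 was higher, with a median log2 difference of -0.58. Over all clusters 15.4% were called lower and 6.00% higher, and this short list was chosen with earlier results of these data known. CAVIN2, a coat protein that promotes membrane curvature, had 847 and 765 units in knockdown and 1463 and 1413 in control (-0.83 ± 0.084 (SE) log2, adjusted p = 0.00312). EHD2, the ATPase at the caveolar neck, had 629.9 and 628 in knockdown and 933 and 989 in control (adjusted p = 0.00568). CAVIN3 had 782 and 859 in knockdown and 1202 and 1258 in control (adjusted p = 0.00766). PACSIN2, a membrane-bending partner named after its values were seen, was the one called higher, at 601 and 677 in knockdown and 464 and 511 in control (adjusted p = 0.0419).

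**Figure D4:**
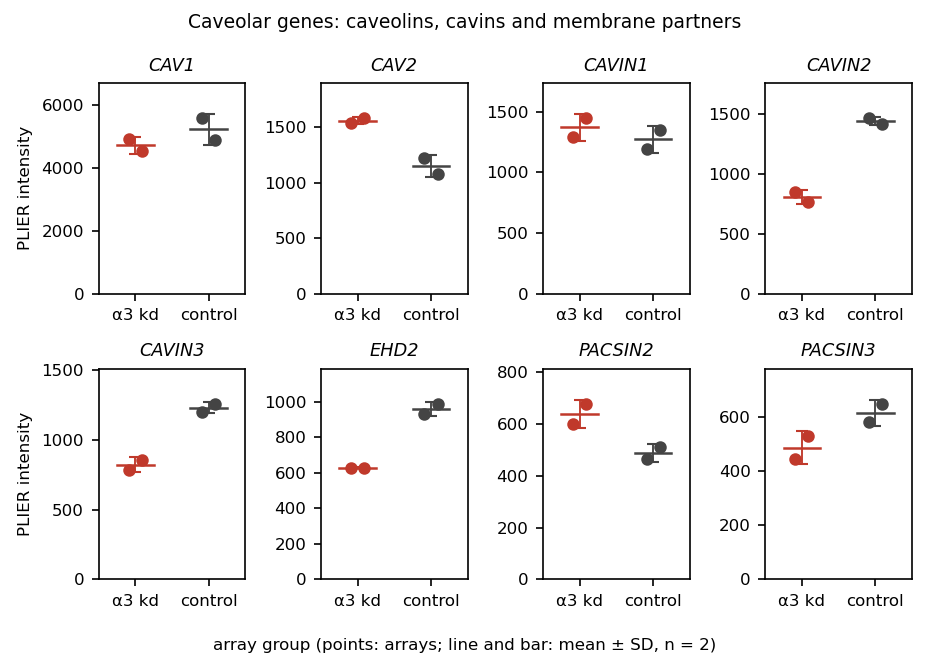
PLIER intensity of caveolins, cavins and their membrane partners in each array, with mean ± SD (n = 2) per group and every axis starting at 0. Knockdown arrays lie above controls for CAV2 and PACSIN2, below them for CAVIN2, CAVIN3, EHD2 and PACSIN3, and overlap them for CAV1 and CAVIN1.

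Other adhesion genes, also listed with earlier results of these data known, are set beside the group. Of 28 further adhesion adaptors tested, 2 were higher and 6 lower, with a median log2 difference of -0.039. Over all clusters 6.00% were called higher and 15.4% lower. TNS2, the tensin left out of the group, had 250.02 and 266 units in knockdown and 434 and 472 in control (-0.78 ± 0.096 (SE) log2, adjusted p = 0.00493). BCAR3, a partner of Cas proteins, had 941 and 956 in knockdown and 1248 and 1319.7 in control (adjusted p = 0.0133). PDLIM5 was higher, at 2678 and 2664 in knockdown and 2002 and 1910.1 in control (adjusted p = 0.0107).

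Of 14 further kinases and phosphatases tested, 3 were higher and 1 lower, beside 6.00% higher and 15.4% lower over all clusters. LIMK1, which phosphorylates cofilin, had 481 and 495 units in knockdown and 330.4 and 322 in control (0.56 ± 0.085 (SE) log2, adjusted p = 0.00872). PTPRF had 784 and 818 in knockdown and 545 and 588 in control (adjusted p = 0.0123), and PAK4 was lower, with 842 and 828 in knockdown and 1107 and 1055 in control (adjusted p = 0.0213).

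The exon-level data asked whether any part of a member changed apart from the rest of its gene. Among 872 tested member probesets, 15 were called higher and 26 lower, where 1.33% of all probesets were called higher and 3.33% lower, or 4.65% in all. The 41 calls fell in 9 members. FERMT1, NEDD9 and TGFB1I1 held most of them. As medians over their probesets, 2 members were higher (NEDD9 and PTK2) and 1 was lower (FERMT1) of 46, beside 2.09% higher and 5.61% lower, or 7.70% in all, over 15104 genes. All 10 members called at the gene level had the same sign in both summaries, which come from the same hybridisations and are not independent.

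Setting each probeset against the mean of the others of its gene, limma called 0 member probesets at the adjusted threshold, and 56 of 872 (6.42%) had an unadjusted p under 0.05, beside 5.88% of all probesets. Over the whole array 0.0592% of probesets were called, and 0.532% of genes held a called one. The diffSplice test of limma was kept only as an alternative, because an earlier self-test on these data gave it many false calls. It called 2 of 46 members by Simes, NEDD9 (adjusted p = 0.0127) and EVL (0.0259), where it called 3.63% of all genes. Its F test called 2 of 46, NEDD9 (0.00576) and LIMS2 (0.0317), where it called 2.08% of all genes. The NEDD9 probesets ranged from 0.29 to 1.87. The least changed, 2941795, had 119 and 138 units in knockdown and 94.2 and 110.1 in control. In control it was brighter than 2941833 (72.4 and 50.3) and 2941788 (77.7 and 69.0), which were called higher at 1.39 and 1.34. The part of brightness in this range was not tested.

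RefSeq sequences upstream of the start sites show what lies next to these genes. They are printed for NEDD9, the largest rise, and for FERMT2 and VCL, called in opposite directions and with a single start each in the RefSeq table used. NEDD9 has 3 starts there, and a start within 1000 bases of a printed one was left out. Each sequence is the 250 bases before the start, 5′ to 3′. Capitals mark the GC box GGGCGG, the TEAD site GGAATG, the AP-1 site TGANTCA, the TATA box TATAAA and the CArG box, searched on both strands.
NEDD9 upstream start, chr6:11382349-11382598, minus strand, GRCh38.p14: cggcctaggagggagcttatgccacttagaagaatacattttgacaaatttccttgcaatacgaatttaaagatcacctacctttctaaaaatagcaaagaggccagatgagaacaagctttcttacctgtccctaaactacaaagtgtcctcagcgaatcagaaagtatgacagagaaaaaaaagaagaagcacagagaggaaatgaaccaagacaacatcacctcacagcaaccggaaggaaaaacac
NEDD9 downstream start, chr6:11232669-11232918, minus strand, GRCh38.p14: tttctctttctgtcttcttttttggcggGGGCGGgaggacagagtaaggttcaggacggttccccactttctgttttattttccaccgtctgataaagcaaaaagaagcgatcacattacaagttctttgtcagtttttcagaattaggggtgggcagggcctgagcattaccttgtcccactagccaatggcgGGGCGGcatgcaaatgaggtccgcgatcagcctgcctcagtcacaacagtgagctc
FERMT2, chr14:52951051-52951300, minus strand, GRCh38.p14: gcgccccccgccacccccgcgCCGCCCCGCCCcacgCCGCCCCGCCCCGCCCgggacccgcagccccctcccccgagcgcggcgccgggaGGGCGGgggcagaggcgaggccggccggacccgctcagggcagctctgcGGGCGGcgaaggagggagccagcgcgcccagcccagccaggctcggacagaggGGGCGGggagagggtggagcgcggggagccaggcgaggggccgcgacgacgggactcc
VCL, chr10:73997866-73998115, plus strand, GRCh38.p14: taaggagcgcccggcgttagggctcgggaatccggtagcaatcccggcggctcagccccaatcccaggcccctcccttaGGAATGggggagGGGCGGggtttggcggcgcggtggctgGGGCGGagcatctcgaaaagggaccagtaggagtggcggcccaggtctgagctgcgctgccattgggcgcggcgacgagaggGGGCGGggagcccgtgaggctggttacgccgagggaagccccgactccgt

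The upstream NEDD9 window held none of these motifs and had a GC content of 40.4%, and the downstream one held 2 GC boxes. FERMT2 had 8 GC boxes, of which 5 lie in 2 runs where neighbouring boxes overlap, and a GC content of 84.4%. VCL had 3 GC boxes and 1 TEAD site, none overlapping. A GC box was found in 44 of the 80 starts of 37 members and in 42.64% of all 35116 starts. The median GC content was 63.6% over the member windows and 58.0% over all. Of the 37 members 19 had 1 start, and each start of the others was counted. A TEAD site was in 7 member starts and 11.89% of all, an AP-1 site in 8 and 6.57%, and a TATA box in 5 and 10.72%. A CArG box was in 4 member starts, those of LPP, RSU1, TES and TGFB1I1, and in 1.16% of all. A match to these letters is a description of the sequence, and the arrays do not measure binding.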

How the data were processed

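Per the labels, the deposited values are linear PLIER intensities that the authors derived with Affymetrix Expression Console from core probesets, at gene and at exon level. The submitters' design text instead credits the Exon Array Computational Tool. Software versions, how background was removed and whether arrays were scaled to each other is not given in the sources used here. Only these summarised values were analysed, and the number of arrays (4) limits precision.

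Features were named through the platform annotation, with symbols updated through RefSeq. Of 22011 clusters and 287329 probesets, 14448 and 261481 had 1 symbol. A gene with several clusters is represented by its brightest. Intensities were transformed as log2(intensity + 16), the dimmest 40% of features, ranked on their mean of the 4 arrays (below 108 units for clusters, 99.4 for probesets), were set aside as dim, and limma 3.58.1 (R 4.3.3) tested knockdown against control (intensity trend, 2 residual degrees of freedom, two-sided). Exon usage set each probeset against the mean of the others in genes with at least 3. Each of these steps was tested on simulated data, and diffSplice was not part of that run. Levels are compared within a gene only.

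Members and lists were chosen with earlier results of these data known. The text names all members, ITGA3, and up to 3 called genes with the smallest p of each pathway list, except that PACSIN2, and PACSIN3 in a plot, were added after their values were seen and 1 list is not reported here. Alternatives covered the offset, filter, trend, scaling, replicate block, each array left out, exon medians and diffSplice. Plots used matplotlib 3.10.9.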

Additional observations from a re-analysis of the deposited data

How the results depend on the processing

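Of 439 recomputed member values, 380 kept direction and call, 32 lost a call, 10 gained one and 17 changed sign, the last all in members that had not passed. Only the 10 called members could lose a call, so the pooled count overstates how stable the calls were. VCL and FERMT2 lost theirs in 7 of 13 settings each, and PTPN12 in 6. NEDD9 and FERMT1 kept their calls in every setting that tested them, and NEDD9 was too dim for the stricter filter. With 1 array left out, 1 to 4 members were higher and 2 to 5 lower, and on exon-level medians 2 and 1. Over all clusters, the count higher was 485 without the filter, 1353 after quantile normalization, 1494 after centring, 1332 with the replicate block, 315 on exon medians and 169 to 893 with an array left out. The count lower was 848 on exon medians and 663 to 1918 with an array left out, against 1701 after quantile normalization and 1529 after centring, which moved the split of calls. Deviations of same-numbered arrays correlated at 0.293 over clusters and 0.301 over probesets, and the numbers were not taken as pairing. With the replicate block 7 members were higher and 6 lower, since LYN (adjusted p = 0.0256), LIMS2 (0.0359) and GIT1 (0.0263) also passed. Probesets called higher numbered 43 without the filter, 3452 after quantile normalization, 3527 after centring, 10775 with the replicate block and 761 to 2011 with an array left out, and those called lower 120 without the filter, 18356 with the block and 2178 to 3386. Member probesets called numbered 0 without the filter, 159 with the block and 17 to 27. Usage calls numbered 1473 probesets with the block and 47 to 430 with an array left out. Genes with a usage call numbered 41 without the filter, 1110 with the block, 444 by diffSplice Simes, 254 by its F test and 32 to 352 with an array left out. Members among them numbered 5, 2 and 2 with the block, Simes and F, and 0 to 1 with an array left out. The cause was not tested for these.

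Signs turned for SRC on exon medians (-0.0092) and with an array left out (-0.0083 to 0.016), for YES1 after quantile normalization (0.0094), centring (0.050) and with an array left out (-0.23 to 0.15), for CSK after quantile normalization (0.020), centring (0.046) and with an array left out (-0.11 to 0.024), and for ENAH on exon medians (-0.024) and with an array left out (-0.0049 to 0.17). Centring turned PXN (0.035), PARVA (0.029) and ZYX (0.0012), and exon medians ZYX (0.10) and PAK2 (0.20). Exon medians are taken per array before the difference. The median of the probeset differences was -0.12 for ZYX, with 9 of 14 negative, and 0.029 for PAK2. Where leaving an array out left 1 in its group, the spread came from the other group alone.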

Other observations

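Single probesets of dim members stood out by value and were picked after their values were seen. In FERMT3, probeset 3334260 had 252 and 333 units in knockdown and 91.5 and 132 in control (1.28 ± 0.27 (SE) log2, limma adjusted p = 0.0337 as a single probeset), while 5 of the 7 tested FERMT3 probesets were negative. Set against the rest of its gene by limma it did not pass (adjusted p = 0.256), the smallest value among members. In EVL, probeset 3551624 had 130.0 and 39.6 units in knockdown and 228 and 210 in control, with the knockdown arrays far apart, and it did not pass as a single probeset (adjusted p = 0.101), while the other 11 ranged between -0.40 and 0.65.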
